A study of Mus musculus with 4 samples.

Results

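The ribbon synapse genes are 8 of the 32289 genes in the count tables, found by their symbols: Otof, Slc17a8, Cacna1d, Cacnb2, Ctbp2, Bsn, Pclo and Rims2. Each symbol matched 1 row, and all 8 are protein-coding genes in GENCODE M21. They were followed in single cells of organoids grown from mouse embryonic stem cells and steered in culture towards inner ear tissue. The stem cell line, Atoh1-nGFP, carries a nuclear GFP reporter of Atoh1. This transcription factor is needed for hair cells to form but acts in other cells too, so GFP need not mark hair cells alone. Each of the 4 groups is 1 library: organoids of day 16, organoids of day 20, and cells sorted at day 21 for high (GFP high) or low (GFP low) reporter signal. All cells came from the 1 line, and the labels describe a GFP sort for the organoids of all days but name a gate for the day 21 libraries alone. With 1 library per group no difference has a replicate check, no p-value was computed, and every interval covers counting error only.

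Hair cells release glutamate steadily and with great temporal precision, and they do so at active zones that carry a dense body, the synaptic ribbon, which tethers a pool of vesicles beside calcium channels. The ribbon is built mainly from RIBEYE, a product of Ctbp2, and bassoon (Bsn) anchors it to the membrane. In the mouse, loss of otoferlin (Otof) or of the vesicular glutamate transporter VGLUT3 (Slc17a8) leaves inner hair cells unable to drive the auditory nerve. Conventional synapses of neurons use synaptotagmins in place of otoferlin, carry complexins and synapsins, and mostly use other calcium channels. They share bassoon, piccolo and RIM proteins with ribbon synapses.

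The members lie on 7 chromosomes in the GRCm38 build. Otof, the calcium sensor of vesicle fusion in hair cells, is at chr5:30367062-30461932 on the minus strand, and Slc17a8 is at chr10:89574020-89621253 on the minus strand. Cacna1d, the pore of the Cav1.3 calcium channel, is at chr14:30039939-30491455 on the minus strand, and Cacnb2, a beta subunit of such channels, is at chr2:14603088-14987908 on the plus strand. Ctbp2 is at chr7:132987563-133124354 on the minus strand and Bsn at chr9:108096022-108190384 on the minus strand. Pclo, which encodes the scaffold piccolo, is at chr5:14514918-14863459 on the plus strand, and Rims2, a RIM protein that holds calcium channels at the active zone, is at chr15:39198261-39684372 on the plus strand. Otof, Slc17a8 and Rims2 overlap no other gene listed in the tables, whereas Cacna1d, Cacnb2, Ctbp2, Bsn and Pclo each overlap at least 1, for Ctbp2 its neighbour Fgfr2 on the same strand.

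Promoter windows, 250 bases before to 50 after a start site, were taken from RefSeq on GRCm38.p6, which matched 6 of the 8 members with 10 windows. The 4 below belong to a member counted in hair-cell-like cells far more than in neuron-like cells (Slc17a8), a member counted in every class (Ctbp2) and a pair counted more in neuron-like cells (Bsn, Pclo). They are written 5′ to 3′ on the gene's strand. Capitals mark CAGCTG and CAGATG, letters that basic helix-loop-helix factors such as ATOH1 can bind, and TATAAA, each searched on both strands, so that CAGATG also appears as CATCTG and TATAAA as TTTATA.
Slc17a8, chr10:89621200-89621499, minus strand: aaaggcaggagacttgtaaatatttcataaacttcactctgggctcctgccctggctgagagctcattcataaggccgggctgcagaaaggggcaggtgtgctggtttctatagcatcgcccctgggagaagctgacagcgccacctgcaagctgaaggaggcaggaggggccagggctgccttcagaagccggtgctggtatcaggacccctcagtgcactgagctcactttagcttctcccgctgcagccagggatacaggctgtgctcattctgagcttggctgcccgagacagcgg
Ctbp2, chr7:133015198-133015497, minus strand: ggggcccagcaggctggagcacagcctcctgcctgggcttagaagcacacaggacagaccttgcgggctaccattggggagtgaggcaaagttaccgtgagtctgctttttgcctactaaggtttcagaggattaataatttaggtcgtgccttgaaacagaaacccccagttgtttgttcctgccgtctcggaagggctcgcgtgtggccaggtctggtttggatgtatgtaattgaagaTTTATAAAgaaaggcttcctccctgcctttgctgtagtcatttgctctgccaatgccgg
Bsn, chr9:108190334-108190633, minus strand: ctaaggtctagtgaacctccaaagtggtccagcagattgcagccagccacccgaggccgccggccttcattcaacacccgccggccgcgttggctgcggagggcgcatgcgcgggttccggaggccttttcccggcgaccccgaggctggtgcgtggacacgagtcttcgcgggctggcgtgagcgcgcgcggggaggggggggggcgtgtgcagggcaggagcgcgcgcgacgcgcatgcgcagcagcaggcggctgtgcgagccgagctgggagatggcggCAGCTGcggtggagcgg
Pclo, chr5:14514668-14514967, plus strand: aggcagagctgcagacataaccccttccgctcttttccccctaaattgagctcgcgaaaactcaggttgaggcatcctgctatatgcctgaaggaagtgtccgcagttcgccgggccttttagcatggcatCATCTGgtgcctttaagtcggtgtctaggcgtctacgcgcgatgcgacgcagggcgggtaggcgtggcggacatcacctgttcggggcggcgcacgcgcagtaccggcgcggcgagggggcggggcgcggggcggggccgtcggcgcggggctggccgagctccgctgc
The Ctbp2 window belongs to the start site of the transcript with the longest coding part, 2964 coding bases, against 1335 in the transcript that starts 5′ of it; RIBEYE is known to be made from such an internal start. TATAAA stood on both strands in an overlapping run in the Ctbp2 window, and CAGCTG once in the Bsn window, after its start site. CAGATG stood once in the Pclo window, and none of the 3 in the printed Slc17a8 window. Among windows not printed, that of Slc17a8 at chr10:89599766-89600065 held CAGATG once. Each Cacnb2 window held CAGCTG once, that at chr2:14823842-14824141 also CAGATG. The Cacna1d window at chr14:30353437-30353736 held CAGCTG once, and its other window only TATAAA. The Ctbp2 window not printed held none. Of all 32851 promoter windows, 16.3% held CAGCTG, 17.2% CAGATG and 13.6% TATAAA. CG dinucleotides numbered 38 in the Bsn and 35 in the Pclo window but 8 in the printed Ctbp2 and 7 in the printed Slc17a8 window. The median over all windows was 7. A match is a description of these letters and not a binding site.

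After filtering, the libraries held 3376, 4348, 3435 and 3686 cells (day 16, day 20, GFP high, GFP low), with median UMIs per cell of 15249, 8834, 28865 and 22214. In the same order, mitochondrial genes took a median of 2.60%, 0.923%, 5.06% and 3.41% of a cell's UMIs. The part of depth and of this share in differences between libraries was not tested. Between 1 and 8 barcodes were shared by any 2 libraries. Cells were clustered without the 8 members or the other synapse genes listed below, and clusters were named from fixed markers. Hair-cell-like cells (4 clusters) numbered 190, 148, 2230 and 824, and all 18 measured hair cell markers were at 10 CPM (counts per gene scaled to a common total of UMIs) or more in them in each library. Of the same 18 markers, 7, 4, 9 and 3 reached 10 CPM in neuron-like cells (7 clusters), which numbered 1341, 753, 229 and 1142. All 13 neuron markers reached 10 CPM in neuron-like cells of each library, against 13, 8, 6 and 8 in hair-cell-like cells. Ccer2-rich cells, 1 cluster led by Ccer2 and high in Atoh1 (668 to 801 CPM), numbered 385, 808, 67 and 144. In Ccer2-rich cells 10 of 12 markers of Merkel cells, Atoh1-using touch cells of the skin, were at 10 CPM or more, Ccer2 itself among them. In these cells Vip had 0 UMIs in each library and Rasgrp1 had 0 in 3 of them. Of the same 12 markers, 8, 7, 7 and 7 reached 10 CPM in hair-cell-like and 8, 6, 8 and 7 in neuron-like cells. In Ccer2-rich cells 11, 11, 13 and 11 of the 13 neuron markers and 9, 10, 16 and 10 of the 18 hair cell markers also did. A class led by Otol1 and Oc90, genes of supporting cells and the otolith layer, is plotted beside them. The hair cell markers of Ccer2-rich cells summed to 1967 to 2312 CPM, against 6985 to 9234 CPM in hair-cell-like cells. Markers of photoreceptors and bipolar cells, the retinal cells with ribbons, summed to at most 2.11 CPM in hair-cell-like cells.

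Otof was counted almost only in hair-cell-like cells, which held 94.0%, 96.0%, 90.7% and 95.4% of its UMIs in the day 16, day 20, GFP high and GFP low libraries. Their Otof level was 365, 467, 1123 and 556 CPM in that order, lowest at day 16 and highest in GFP high, with no 2 of the 95% Poisson intervals overlapping. In neuron-like cells it was 3.89, 0.734, 13.4 and 2.68 CPM. In mesenchyme-like cells, which should lack the gene, it was 1.15, 1.08, 55.1 and 3.58 CPM. The GFP high value is 67 UMIs held by 12 of 52 cells. Of the 52 cells, 31 belong to a mesenchyme-like cluster found in all 4 libraries and had 25.02 CPM (17 UMIs). Another 18 belong to a cluster led by Ptgds, Nid2 and Otor.

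Slc17a8 stood at 65.9, 117, 188 and 137 CPM in hair-cell-like cells of the day 16, day 20, GFP high and GFP low libraries, with the libraries in the same order of level as for Otof. Hair-cell-like cells held 60.7%, 52.2%, 92.8% and 93.5% of its UMIs, and at days 16 and 20 another 29.3% and 37.5% lay in Ccer2-rich cells. In neuron-like cells it was 2.21, 5.75, 2.08 and 0.947 CPM, and in mesenchyme-like cells 0.355, 0.285, 9.05 and 0.796 CPM. Neuron-like cells of the cluster led by Calb1, Car8 and Pcp2 stood apart within their class, with 21.9 CPM of Slc17a8 at day 20 (33 UMIs in 117 cells; 95% interval 15.1 to 30.7) and 5.98 CPM at day 16. VGLUT3 is also known from some central neurons. Slc17a6, which encodes VGLUT2, a transporter of excitatory neurons, had 18.2, 3.18, 30.9 and 11.5 CPM in hair-cell-like cells, against 65.3, 52.1, 105 and 110 CPM in neuron-like cells.

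Cacna1d was lower in hair-cell-like cells of the day 16 (53.9 CPM) and day 20 (42.6 CPM) libraries than in GFP high (109 CPM) and GFP low (117 CPM). The make-up of the class differed between these libraries. The Grp/Calb2 state, described below and lowest in Cacna1d at day 21, was 68.9% and 50% of it at days 16 and 20. In GFP high and GFP low it was 37.7% and 9.83%. The part of this in the difference was not tested. Neuron-like cells had 11.2, 13.8, 18.7 and 23.5 CPM, so that the gene was present in both classes. The pores of the conventional presynaptic channels ran the other way, Cacna1a at 1.59 to 6.17 CPM in hair-cell-like cells against 42.5 to 49.8 CPM in neuron-like cells, and Cacna1b at 3.18 to 7.35 CPM against 38.4 to 47.9 CPM. Cacna1f, the pore used at photoreceptor ribbons, did not pass 0.189 CPM in either class.

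Cacnb2 was sparse: 18.0, 5.97, 20.5 and 11.4 CPM in hair-cell-like cells, the day 20 value from 15 UMIs. Neuron-like cells had 5.06, 5.63, 2.64 and 3.31 CPM. Of the other beta subunits, Cacnb3 stood at 35.4 to 58.0 CPM in hair-cell-like cells and 50.6 to 64.5 CPM in neuron-like cells, and Cacnb4 at 0.398 to 1.14 CPM against 27.0 to 31.7 CPM.

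Ctbp2 was present in every class, at 52.4, 43.8, 87.5 and 74.2 CPM in hair-cell-like cells and at 47.0, 31.8, 65.4 and 65.7 CPM in neuron-like cells. Mesenchyme-like cells had 44.2, 24.7, 38.7 and 31.9 CPM. The transcript with the longest coding part and the main transcript of the CtBP2 repressor end within a short distance of each other, so these counts per gene cannot tell RIBEYE from that widely used protein.

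The 3 scaffolds had their higher levels in neuron-like cells. Bsn was at 4.38, 3.18, 7.39 and 7.01 CPM in hair-cell-like cells, against 26.9, 23.7, 26.3 and 29.2 CPM in neuron-like cells. Pclo was at 41.9, 26.3, 42.4 and 29.8 CPM in hair-cell-like cells, against 99.6, 92.0, 77.6 and 101 CPM in neuron-like cells. Rims2 was at 33.3, 18.7, 27.6 and 30.6 CPM, against 67.7, 63.6, 53.1 and 74.5 CPM; for each of the 3 the ranges over libraries did not overlap between the classes. Neuron-like cells held 82.3%, 64.0%, 19.5% and 73.5% of all Bsn UMIs, the low share being that of GFP high, where they were the fewest. Rims1, a relative of Rims2, was at 0.0145 to 0.398 CPM in hair-cell-like cells against 7.75 to 23.5 CPM in neuron-like cells.

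**Figure D1:**
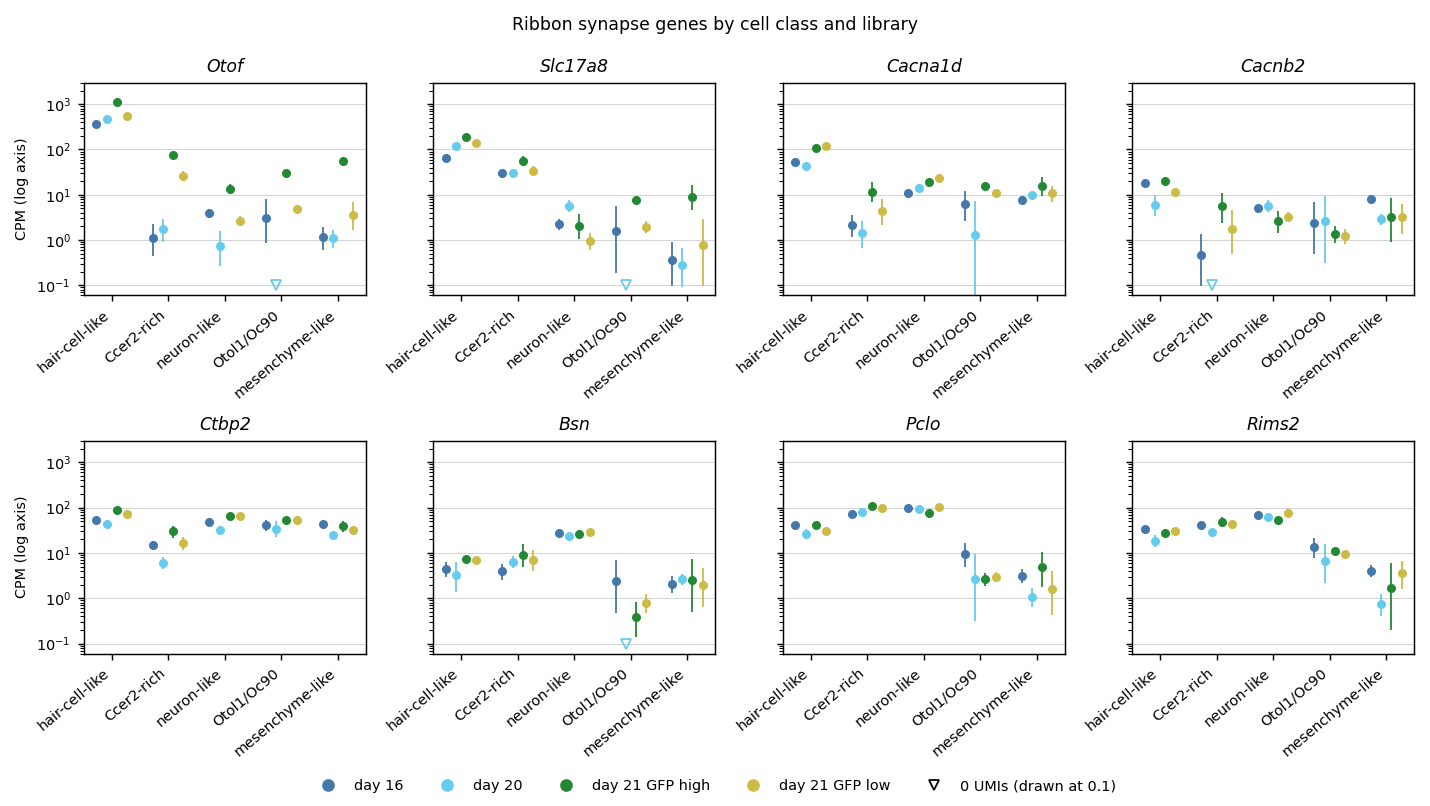
Level of each ribbon synapse gene (CPM, log axis) in 5 cell classes, 1 point per library in order of day, with 95% Poisson intervals of the UMIs; open triangles are classes with 0 UMIs. Otof and Slc17a8 stand highest in hair-cell-like cells, Ctbp2 differs little between hair-cell-like and neuron-like cells, and Bsn, Pclo and Rims2 are lower in hair-cell-like than in neuron-like cells in every library.

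Hair-cell-like and neuron-like cells were then compared within each library, so that both classes came through the same gate and preparation. The call for a gene required a CPM ratio of at least 2 in either direction and a 95% counting interval without 1. Otof, Slc17a8 and Cacna1d were higher in hair-cell-like cells in 4 of 4 libraries and Cacnb2 in 3 of 4, while Bsn was lower in 4 of 4 and Pclo and Rims2 in 3 of 4. That is 4, 3, 4 and 4 members higher (day 16, day 20, GFP high, GFP low), where the rule called 18.6%, 20.4%, 19.9% and 20.8% of all genes at 10 CPM or more higher. It is 3, 3, 1 and 3 members lower, where 18.4%, 24.5%, 19.2% and 22.4% of all genes were lower. Many genes thus differ between these 2 classes.

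The ratio for Otof ran from 83.7 in GFP high to 636 at day 20, and that for Slc17a8 from 20.4 at day 20 to 145 in GFP low; the highest ratios rest on few UMIs in neuron-like cells (6 of Otof at day 20). The level of Cacna1d in hair-cell-like cells was 3.08 to 5.81 times that in neuron-like cells. The day 20 ratio of Cacnb2 was 1.06, with an interval of 0.550 to 1.93, and the other 3 were 3.45 to 7.74. Ctbp2 ratios were 1.12 to 1.38, called in no library.
Bsn ratios were 0.134 to 0.281. In GFP high the ratios of Pclo (0.546) and Rims2 (0.520) stayed short of the 2-fold rule, and in the other libraries they were 0.286 to 0.421 and 0.294 to 0.492. The day 16 call of Rims2 was lost with finer clusters (0.508) and with doublets kept (0.509), and the day 20 call of Cacna1d with the mean of per-cell CPM (1.49). By that mean Rims2 met the rule as lower in GFP high (0.472).

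Both lists of other synapse genes held more genes lower than higher in hair-cell-like cells. Of 46 measured genes of a list of other hair cell active zone, calcium channel and vesicle genes, 41, 41, 42 and 42 reached 10 CPM, and of these 9, 8, 12 and 7 were higher in hair-cell-like cells and 23, 25, 18 and 21 lower (day 16, day 20, GFP high, GFP low), with a median log2 ratio of -1.30 to -0.63. Of 22 genes of conventional synapses, 17, 17, 20 and 18 reached 10 CPM, with 1, 1, 2 and 2 higher and 14, 15, 14 and 14 lower; their median log2 ratio was -2.85 to -1.87, against -0.13 to 0.01 over all genes. The difference between the lists was not tested. Syt1, Syt2, Slc17a6 and Slc17a7 stand in both of these lists, and Cabp4 and Cacna2d4 in both the first and a list of 8 retinal ribbon genes, of which 2 or 3 reached 10 CPM.
Cabp2, a calcium-binding modulator of Cav1.3, had 165, 633, 634 and 812 CPM in hair-cell-like cells against 0.367 to 6.99 CPM in neuron-like cells. Gipc3, a PDZ protein needed for mouse hearing, had 39.3, 48.5, 123 and 96.0 CPM against 0.136 to 0.567 CPM. Both were higher in 4 of 4 libraries. Syt4 (0.742 to 2.92 CPM against 176 to 246 CPM) and the inhibitory vesicle transporter Slc32a1 (0.0582 to 1.19 CPM against 38.9 to 118 CPM) were lower in hair-cell-like cells in 4 of 4.

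Ccer2-rich cells shared Slc17a8 with hair-cell-like cells but, at days 16 and 20, held hardly any Otof. At day 16 they held 7 UMIs of Otof and 196 of Slc17a8, where hair-cell-like cells held 2248 and 406, and mesenchyme-like cells 13 and 4. At day 20 the pair was 12 and 212 UMIs in Ccer2-rich cells, against 1173 and 295 in hair-cell-like cells and 19 and 5 in mesenchyme-like cells. Slc17a8 UMIs thus outnumbered Otof UMIs in Ccer2-rich cells at days 16 and 20, and Otof UMIs outnumbered Slc17a8 UMIs in hair-cell-like cells. At day 21 Ccer2-rich cells held 110 UMIs of Otof and 82 of Slc17a8 in GFP high, the same order as in hair-cell-like cells, and 60 and 77 in GFP low, where the intervals of the 2 levels overlapped.
Slc17a8 levels in Ccer2-rich cells were 30.6, 30.3, 56.9 and 34.1 CPM in the day 16, day 20, GFP high and GFP low libraries, each above every neuron-like and mesenchyme-like value. Otof levels were 1.09, 1.71, 76.4 and 26.5 CPM, close to the mesenchyme-like level before day 21. In both day 21 libraries 10 or fewer Ccer2-rich cells held all Otof UMIs, so these 2 values rest on few cells of classes of 67 and 144.

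By the size rule, 5 members (Otof, Slc17a8, Cacna1d, Cacnb2 and Ctbp2) were lower in Ccer2-rich than in hair-cell-like cells in 4 of 4 libraries, where 22.4%, 24.5%, 19.2% and 22.4% of all genes were called lower. Pclo was higher in 3 of 4, and 10.2%, 12.9%, 14.3% and 14.7% of all genes were called higher. Cacnb2 had 0 UMIs in Ccer2-rich cells at day 20, and since 3 counts are the limit a count of 0 allows, no fold is given. It was below the 10 CPM minimum of these shares in both classes there. Of the 6 members at the minimum at day 20, 4 were lower. Ctbp2 stood at 15.3, 6.14, 29.9 and 16.4 CPM in Ccer2-rich cells, ratios of 0.140 to 0.341, which makes them the class with the lowest Ctbp2 among the 5 plotted in each library.
Pclo reached 74.0, 81.1, 106 and 99.6 CPM in Ccer2-rich cells, 1.77 to 3.34 times the hair-cell-like level. Rims2 at 41.1, 29.0, 47.9 and 42.9 CPM and Bsn at 3.90, 6.43, 9.03 and 7.08 CPM were called neither way. TMM scaling, which moved all log2 ratios up by 0.24 at day 16 and 0.29 at day 20, ended the day 16 call of Slc17a8 (0.550) and called Pclo at day 16 (2.09) and Bsn at day 20 (2.47) higher. Among the other genes, the calcium channel subunit Cacna2d1 (at least 188 CPM in each library, against 2.05 to 5.52 CPM in hair-cell-like cells) and the synapsin Syn2 (227 to 360 CPM against 3.62 to 9.55 CPM) were higher. Cabp2 was lower, at 0, 4.86, 31.9 and 14.6 CPM in Ccer2-rich cells, and so was Syt2, at 0 to 7.64 CPM against 67.1 to 82.4 CPM in hair-cell-like cells. Of the other active zone genes at 10 CPM or more (35, 32, 39 and 37), 13, 14, 15 and 13 were higher and 9, 8, 10 and 13 lower. Of the conventional synapse genes at 10 CPM or more (15, 13, 16 and 15), 7, 7, 10 and 8 were higher and 6, 3, 2 and 4 lower.

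**Figure D2:**
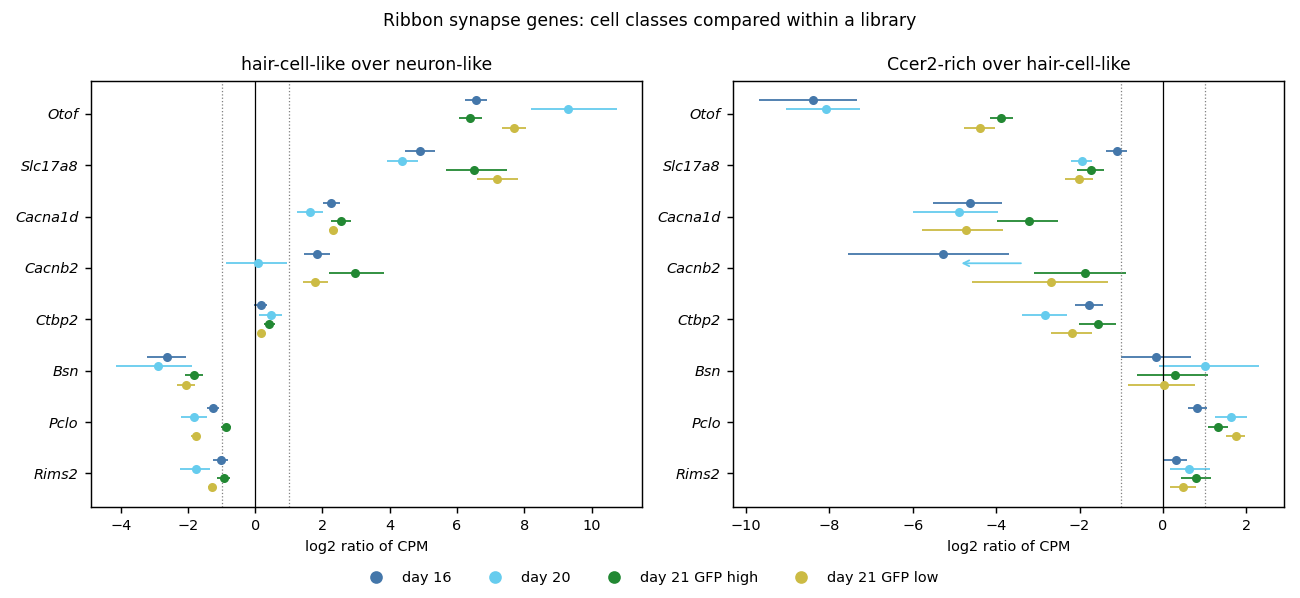
Log2 ratio of CPM within each library with its 95% counting interval, hair-cell-like over neuron-like cells on the left and Ccer2-rich over hair-cell-like cells on the right; dotted lines mark a ratio of 2 either way, and the arrow is a gene with 0 UMIs in Ccer2-rich cells, drawn from the upper bound. Otof, Slc17a8 and Cacna1d lie right of the dotted line on the left panel and left of it on the right panel in all 4 libraries.

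Cells were thinned to 3000 UMIs each to compare the share of cells with at least 1 UMI at one depth, which left out 4, 4, 14 and 15 hair-cell-like cells (day 16, day 20, GFP high, GFP low). It also left out 145, 179, 5 and 49 neuron-like, 143, 260, 1 and 1 mesenchyme-like and 6, 57, 0 and 2 Ccer2-rich cells. Otof was then seen in 51.1%, 61.1%, 83.3% and 62.7% of hair-cell-like cells, against 0.920%, 0.174%, 4.91% and 0.915% of neuron-like cells and 0.375%, 0.111%, 7.84% and 1.71% of mesenchyme-like cells. Without thinning, 85.3%, 85.8%, 96.6% and 87.5% of hair-cell-like cells had an Otof UMI. The gene was therefore found in most hair-cell-like cells at each time.
Slc17a8 was seen in 15.6%, 24.3%, 36.7% and 28.2% of thinned hair-cell-like cells and in 8.71%, 8.26%, 14.9% and 7.75% of thinned Ccer2-rich cells, against at most 1.22% of neuron-like and 1.96% of mesenchyme-like cells. Hair-cell-like cells with a Slc17a8 UMI had an Otof UMI in 65.5%, 88.6%, 94.3% and 85.5% of cases, and those without one in 48.4%, 52.3%, 76.8% and 53.7%. In Ccer2-rich cells with a Slc17a8 UMI, Otof was seen in 0 of 33 cells at day 16, which allows a share of up to 9.09% with a UMI at this depth and sets no limit on cells that express the gene, and in 1.61% of 62 cells at day 20. At least 3 of the 8 members were seen in 15.1%, 11.8%, 29.3% and 19.3% of hair-cell-like cells.

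GFP high and GFP low cells of day 21 were compared to ask how the reporter gate divides the genes. Over all cells 4 members were higher in GFP high: Otof (793 CPM against 128 CPM in GFP low, ratio 6.19, interval 6.08 to 6.31), Slc17a8 (130 against 32.2 CPM, ratio 4.02), Cacnb2 (15.02 against 4.32 CPM, ratio 3.48) and Cacna1d (77.6 against 36.7 CPM, ratio 2.11). No member was lower; 6.95% of all genes were higher and 7.74% lower. Hair-cell-like cells made up 64.9% of GFP high cells and 22.4% of GFP low cells, so that over all cells more cells of a type and more RNA per cell cannot be told apart. The Egfp transcript did not always go with Atoh1 over clusters pooled across libraries. A cluster led by Car3 had 5950 CPM of Egfp and 5.08 CPM of Atoh1, against 5259 and 749 CPM in Ccer2-rich cells. Ctbp2 (76.4 against 61.4 CPM), Bsn (6.64 against 10.8 CPM), Pclo (35.8 against 39.4 CPM) and Rims2 (24.99 against 33.3 CPM) were called neither way. The Cacna1d call was lost with the mean of per-cell CPM (1.86). Of the other active zone genes 39 reached 10 CPM, with 5 higher and 9 lower in GFP high and a median log2 ratio of -0.27, against -0.04 over all genes; of the conventional genes 16 did, with 1 higher and 6 lower, one of the 6 being Slc32a1 at 2.32 against 27.4 CPM.

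Within hair-cell-like cells 1 member was still called, Otof, at 1123 CPM in GFP high against 556 CPM in GFP low. The ratio of 2.02, interval 1.98 to 2.06, sits at the 2-fold rule itself, which called 3.64% of all genes higher and 1.74% lower. Atoh1, at 174 against 33.4 CPM, and the Egfp transcript, at 5063 against 1246 CPM, differed more. Cacnb2 followed with a ratio of 1.79, Pclo with 1.42, Slc17a8 with 1.37 and Ctbp2 with 1.18, while Cacna1d at 0.929 and Rims2 at 0.904 were on the other side of 1.
The intervals of these 6 ratios excluded 1, and that of Bsn (1.05) did not. Of the other active zone genes 3 of 33 at 10 CPM or more were higher in GFP high (Syt13 at 85.8 against 22.5 CPM, Slc17a6 at 30.9 against 11.5 CPM and Rab3b at 124 against 57.8 CPM) and 2 lower, among them Cacna2d4 at 10.4 against 25.2 CPM. Their median log2 ratio was -0.16, against 0.01 over all genes. Of 9 conventional genes 1 was higher and 0 lower, and of 2 retinal genes 0 were higher and 1 lower.

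Day 20 and day 16 were compared in the same way. Over all cells no member was higher and 1, Cacnb2, was lower at day 20 (2.91 against 5.95 CPM, ratio 0.489), below the 10 CPM from which the background of 5.03% higher and 6.79% lower was counted. That call was lost with the lenient cell filter (0.505), with TMM scaling (0.556) and without Ccer2-rich cells (0.526), and without Ccer2-rich cells Pclo was called lower (0.464). Hair-cell-like cells were 3.40% of day 20 cells and 5.63% of day 16 cells. Otof ran one way over all cells (28.9 against 41.4 CPM) and the other within hair-cell-like cells (467 against 365 CPM, ratio 1.28, interval 1.19 to 1.37).
Within hair-cell-like cells Cacnb2 was again the 1 member lower (5.97 against 18.0 CPM, ratio 0.331, interval 0.179 to 0.570), where 5.14% of all genes were higher and 9.89% lower. Slc17a8 came closest to the rule in the other direction, at 117 CPM at day 20 against 65.9 CPM at day 16 (ratio 1.78, interval 1.53 to 2.07). Cabp2 was higher at day 20, at 633 against 165 CPM, as were Rab3a (398 against 199 CPM) and Rab3ip (533 against 222 CPM), the 3 higher among 30 other active zone genes, of which 1 was lower. Over all cells 1 of 38 was higher and 6 lower. Of the conventional genes 0 were higher in either set, while 6 of 18 over all cells and 3 of 10 within hair-cell-like cells were lower. The make-up of the class differed: cells of the Cib3 state, described next, were 31.1% of it at day 20 and 3.68% at day 16.

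**Figure D3:**
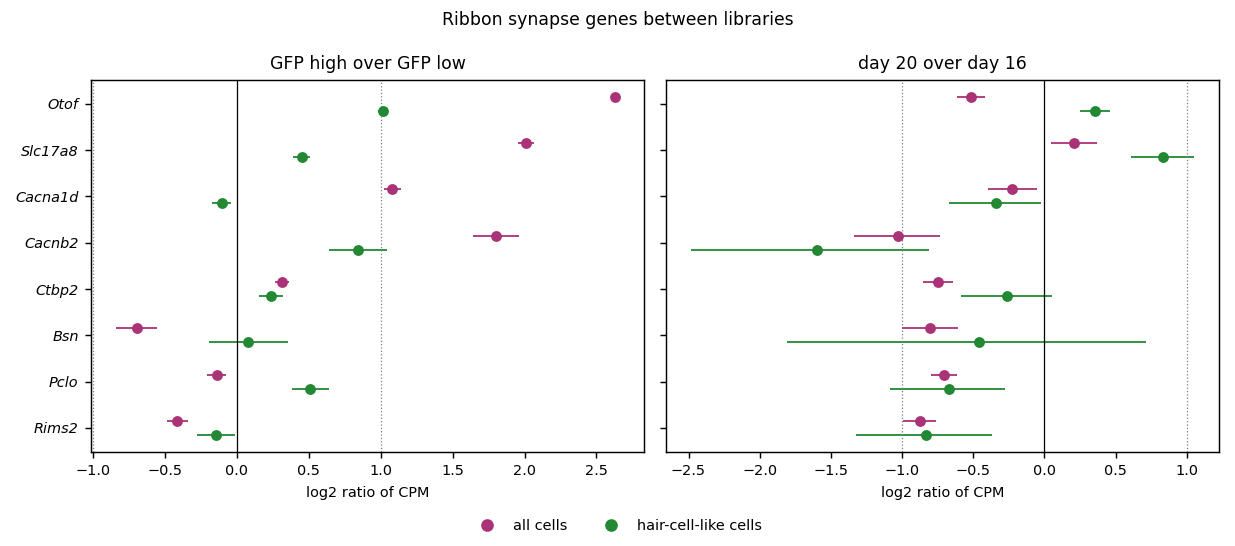
Log2 ratio of CPM between libraries for all cells and for hair-cell-like cells, GFP high over GFP low on the left and day 20 over day 16 on the right, with 95% counting intervals; dotted lines mark a ratio of 2 either way. The GFP high ratios of Otof, Slc17a8, Cacnb2 and Cacna1d are smaller within hair-cell-like cells than over all cells.

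The 4 hair-cell-like clusters are named by genes that mark them: Cib3, a calcium-binding partner of the mechanotransduction channel; Ocm, the calcium buffer oncomodulin; Bmp2; and a cluster high in Grp, Calb2 and Atoh1. In GFP high they held 871 (Cib3), 840 (Grp/Calb2), 382 (Ocm) and 137 (Bmp2) cells, and in GFP low 345, 81, 56 and 342. Each state was set against the other hair-cell-like cells of its library. Days 16 and 20 held too few cells of most states and were not compared.

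The Cib3 state had the highest Otof and Slc17a8 levels of the 4 states in both libraries. Otof was at 1760 CPM in GFP high and 997 CPM in GFP low Cib3 cells, 2.23 and 3.72 times the level in the other hair-cell-like cells. Slc17a8 was at 371 and 257 CPM, 4.01 and 4.34 times the level in the other cells. Bsn was also higher in both libraries, at 11.2 and 10.2 CPM, with ratios of 2.09 and 2.08; the second fell short of the rule with doublets kept (1.89) and with the mean of per-cell CPM (1.73). These are 3 members higher and none lower, where 4.38% of all genes were higher and 6.95% lower in GFP high, and 3.89% and 4.01% in GFP low.

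The Ocm state had the lowest Otof and Slc17a8 levels of the 4 states in both libraries. Its Otof level was 427 CPM in GFP high and 121 CPM in GFP low, ratios of 0.333 and 0.207, and its Slc17a8 level 57.8 and 21.0 CPM, ratios of 0.266 and 0.144. Its Cacna1d level, 193 and 191 CPM, was the highest of the 4 states in both libraries, 2.16 times that of the other cells in GFP high and 1.71 times in GFP low, where the rule was not met. So 1 and 0 members were higher (background 5.23% and 2.94%) and 2 and 2 lower (6.86% and 6.84%).

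The Bmp2 state was called for no member in GFP high (background 3.28% higher, 5.74% lower) and as lower for Otof and Slc17a8 in GFP low (2.98% higher, 4.5% lower). Its Otof level was 707 CPM in GFP high and 245 CPM in GFP low, and its Cacna1d level 149 and 135 CPM. In the Grp/Calb2 state no member was higher (7.92% of all genes in GFP high and 10.6% in GFP low were). Bsn, Cacna1d and Slc17a8 were lower in both libraries, and Cacnb2 and Rims2 also in GFP low, which is 3 and 5 members (8.5% and 15.2% of all genes). In GFP low the calls of Bsn (3 UMIs) and Cacnb2 (8 UMIs) rest on few counts and were lost with the mean of per-cell CPM. Of the other active zone genes in this state 2 of 33 were higher and 13 lower in GFP high, and 3 of 34 higher and 21 lower in GFP low. Cacna1d was at 65.3 CPM in GFP high and 40.2 CPM in GFP low Grp/Calb2 cells, ratios of 0.471 and 0.324, while Otof at 970 and 501 CPM was called neither way.

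In each of the 4 states Otof and Slc17a8 were higher in GFP high than in GFP low, with intervals apart. Cacna1d was so in the Grp/Calb2 state alone, and its intervals overlapped in the other 3. The states took different shares of the class in the 2 libraries, Grp/Calb2 37.7% in GFP high and 9.83% in GFP low, Bmp2 6.14% and 41.5%. With the GFP low shares used as weights in both libraries, the Otof ratio was 2.001.

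**Figure D4:**
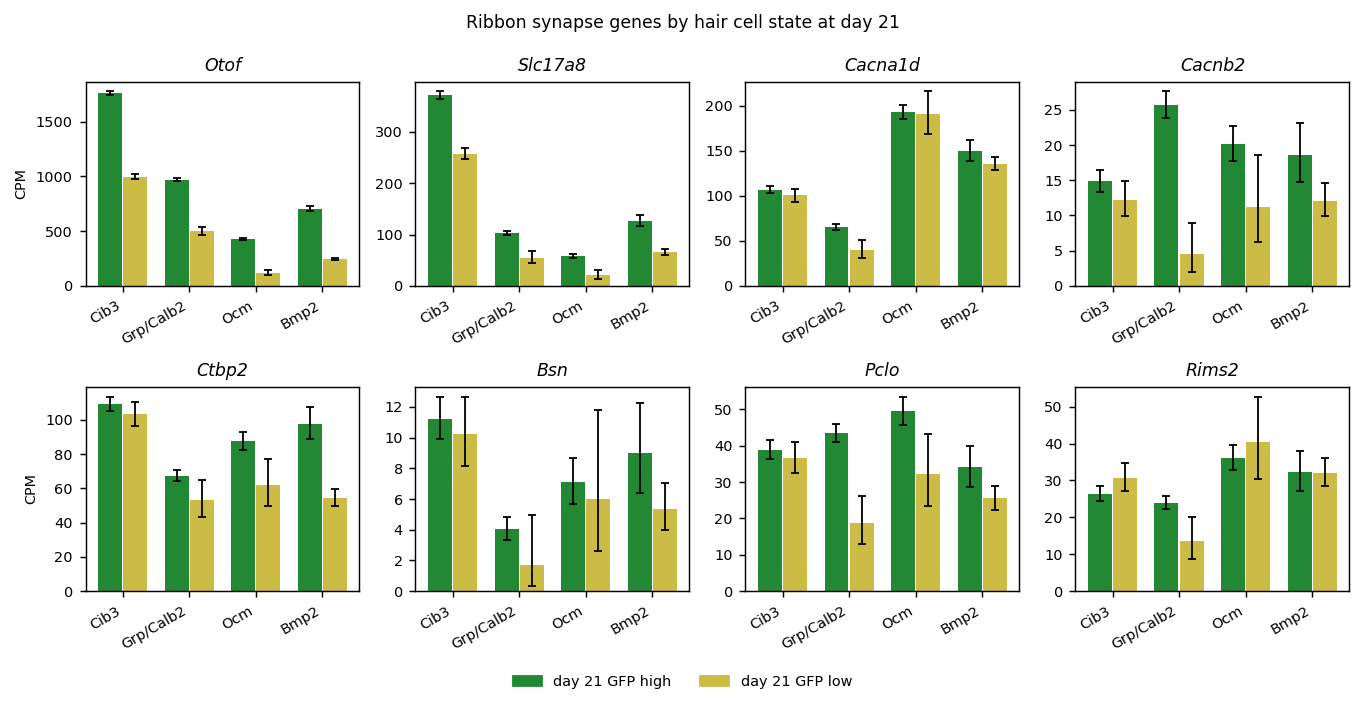
Level of each ribbon synapse gene (CPM, linear axes of their own) in 4 hair cell states of the day 21 GFP high and GFP low libraries, bars with 95% Poisson intervals. Otof and Slc17a8 are highest in the Cib3 state and Cacna1d in the Ocm state in both libraries.

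Finer clustering of all kept cells gave 8 hair-cell-like clusters, compared here within each day 21 library and given as levels only. They were named afresh by the same rules and need not hold the same cells as the 4 states. Among the 4 named Grp/Calb2, Otof in GFP high was lowest, at 261 CPM, in the one with the highest Atoh1 (460 CPM, 209 cells). That cluster was also lowest in Slc17a8 at 30.3 CPM and Cacna1d at 32.4 CPM. The next in Atoh1 (410 CPM) had 916 CPM of Otof. The one with the lowest Atoh1 of the 4 (164 CPM) and the highest Calb2 (2534 CPM) had 1791 CPM of Otof, close to the 1859 CPM of the Cib3 cluster highest in Otof. Slc17a8 separated these 2, at 216 CPM in the first and 490.2 CPM in the second.
In GFP low, with 14 to 56 cells in each of the 4, this order did not hold throughout. The cluster with the highest Atoh1 was again lowest in Cacna1d (21.4 CPM). Its 275 CPM of Otof and 42.0 CPM of Slc17a8, however, stood above the 205 and 28.7 CPM of another Grp/Calb2 cluster (25 cells). The clusters second and lowest in Atoh1 were nearly equal in Otof, at 941 and 961 CPM (14 and 16 cells).
The Ocm cluster had 287 CPM of Cacna1d in GFP high and 244 CPM in GFP low, beside 374 and 126 CPM of Otof and 44.1 and 18.8 CPM of Slc17a8. In both libraries Cacna1d therefore had its maximum in a different cluster from the other 2. In the 2 clusters with the highest Atoh1 the gates hardly differed, with Otof at 261 CPM in GFP high against 275 CPM in GFP low (209 and 56 cells) and at 916 against 941 CPM (383 and 14 cells), whereas in the other 6 clusters Otof was higher in GFP high.

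**Figure D5:**
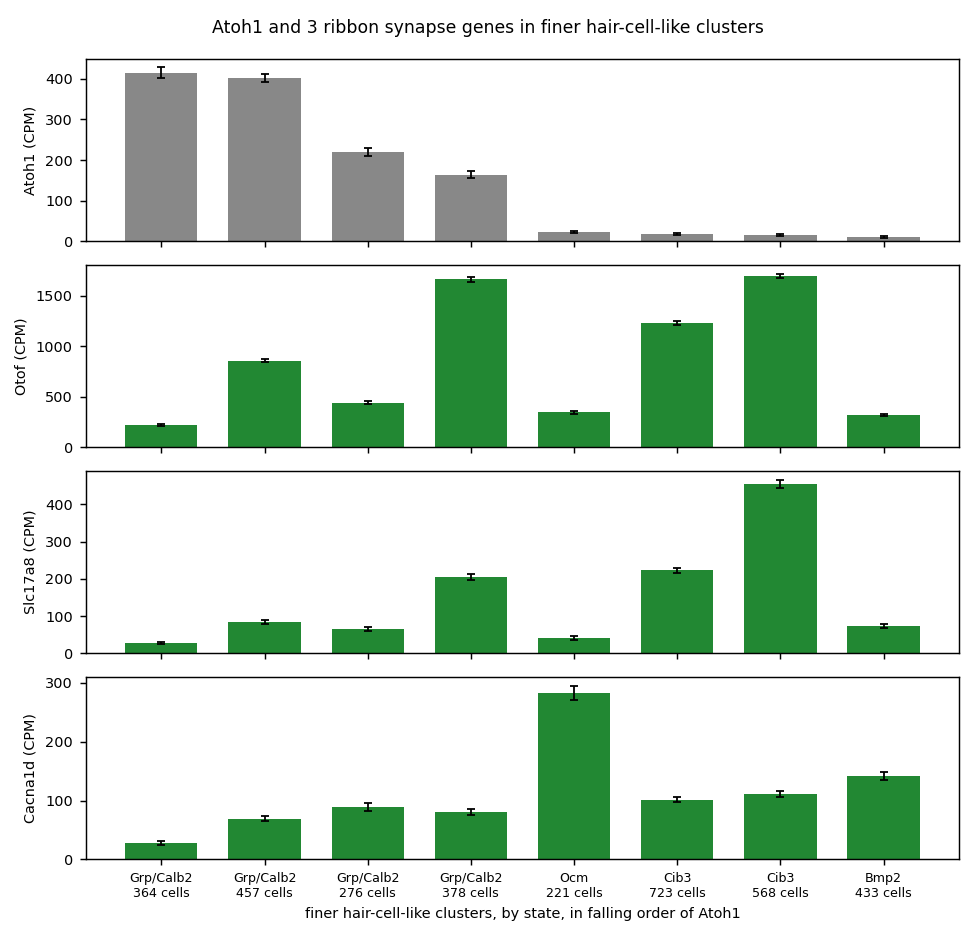
Level (CPM) of Atoh1 and of Otof, Slc17a8 and Cacna1d in 8 finer hair-cell-like clusters pooled over the 4 libraries, in falling order of Atoh1, with 95% Poisson intervals. Otof and Slc17a8 peak in a Cib3 cluster (1698 and 455 CPM) and Cacna1d in the Ocm cluster (282 CPM).

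Across all 26 clusters 2 groups of members had high Pearson r of log2(CPM + 5) among themselves. This is a description over clusters that share libraries and depth, and no rule placed every member in a group. Otof and Slc17a8 had r of 0.93, and Bsn, Pclo and Rims2 had r of 0.80 to 0.86 among themselves, while Otof and Bsn had r of -0.13. Cacna1d had r of 0.75 with both Otof and Cacnb2. Ctbp2 had its highest r, 0.59, with Cacna1d.
The 3 genes most like Otof were Smpx (r 0.98), itself a hair cell marker used to name the clusters, Cfap126 and 2410004P03Rik. Those most like Slc17a8 were Gfi1 (r 0.96), also such a marker, Dnaic2 and Tekt2. Those most like Cacna1d were Aak1 (r 0.93), Dync2h1 and Nbas, and those most like Cacnb2 were Gm11837 (r 0.84), Fam149a and Hacd3. For Bsn they were Syn1 (r 0.97), a synapsin, Celf6 and Kif5a, for Pclo Unc13a (r 0.95), a vesicle priming factor, Fam57b and Rundc3a, for Rims2 Cyth2 (r 0.95), Bex2 and Cisd1, and for Ctbp2 Gnpat (r 0.81), Emsy and Aifm1.

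One cluster of 166 cells was left unnamed because it carried hair cell and supporting cell markers together; its median of 51102 UMIs was the highest of the clusters with hair cell markers. Its 156 GFP high cells had 834 CPM of Otof and 88.8 CPM of Slc17a8. Without this cluster the GFP high over GFP low ratio of Otof over all cells was 6.22. A cluster of 59 day 16 cells led by Krt17, with 13443 CPM of Ccer2, had 105 CPM of Pclo and 0 UMIs of Otof, and the Ccer2-rich cells of days 16 and 20 likewise had much Pclo and little Otof.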

How the data were processed

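Single-cell RNA was measured in 4 organoid libraries, 1 per group. The authors deposited raw UMI counts per gene and barcode. The tables come from Cell Ranger 6.1.2 per the file headers, while the submitters' processing notes name version 6.1.0 with build mm10 and, for later steps, Seurat 4.0.6. Annotation and library chemistry were not given in the sources used here. Labels speak of nuclei in one place and of cells in another.

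Barcodes with under 1000 genes or over 15% mitochondrial UMIs were left out, as were the highest Scrublet doublet scores (120, 205, 109 and 137 cells at day 16, day 20, GFP high and GFP low). Scanpy 1.11.5 clustered all kept cells (2000 variable genes without the synapse lists, 30 components, Leiden resolution 1). A cluster met a marker list when 50% of its markers, and at least 3, were raised 4 times over the median cluster. It took the list's name when a marker was also among its 25 leading genes and no other list qualified. The Merkel cell list named no cluster. A cluster with Ccer2 as its leading gene was named Ccer2-rich unless it met a list other than hair cell or Merkel cell. Clusters that met the supporting cell and cartilage but not the hair cell list formed the class led by Otol1 and Oc90. Counts were summed per class and library and scaled to CPM, with exact Poisson, conditional binomial and Clopper-Pearson 95% intervals. TMM factors came from edgeR 4.0.16. The ratio calculation was tested on simulated data.

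No test across samples was possible. Text names all 8 members, their gene relatives, the 3 genes most like each member and, per comparison and list, at most 4 genes that reach 20 CPM and have the largest absolute log2 ratios. Members and lists were chosen with earlier results of these data known. Alternatives were other cell filters, doublets kept, other clusterings, the mean of per-cell CPM, TMM scaling, other thinning depths and classes left out. The values of 1 gene that the naming rule selected are not reported here.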

Additional observations from a re-analysis of the deposited data

How the results depend on the processing

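Of the single-gene ratios recomputed under the alternatives, 831 kept their call (higher, lower or neither), 5 came to pass the 2-fold rule and 12 no longer passed it. No ratio called higher or lower changed direction. For ratios called neither way in both settings the direction was not compared. The Otof ratio within hair-cell-like cells was 2.001 to 2.021 in every setting, at the rule itself. The count of members lower at day 20 over all cells was 0 with the lenient filter (500 genes, 25% mitochondrial UMIs) and with TMM scaling, against 1; that of member values higher in Ccer2-rich cells was 5 with TMM scaling, against 3 of 32. Values of hair-cell-like cells above neuron-like cells with share intervals apart numbered 13 of 32, 11 at 1500 UMIs and 15 at 6000 UMIs.

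With TMM scaling the other active zone list had 5 genes lower in GFP high over all cells (against 9) and 2 lower at day 20 (against 6), and the conventional list 2 higher in GFP high (against 1) and 3 lower at day 20 (against 6). Without the 10 CPM minimum the conventional list had 10 lower in GFP high over all cells (against 6) and, within hair-cell-like cells, 3 higher and 1 lower (against 1 and 0). The active zone list then had 4 lower in GFP high hair-cell-like cells (against 2), 2 higher at day 20 over all cells (against 1) and 5 higher at day 20 within hair-cell-like cells (against 3). The retinal list had 2 lower in GFP high over all cells (against 0), 1 higher and 1 lower at day 20 over all cells (against 0 each), 1 higher at day 20 within hair-cell-like cells (against 0), and 8 higher and 5 lower over neuron-like cells (against 2 and 3). TMM shifted log2 ratios by more than 0.1 in GFP high over GFP low (0.12) and day 20 over day 16 (0.19), both over all cells, in Ccer2-rich over hair-cell-like cells at day 16 (0.24) and day 20 (0.29), and in hair-cell-like over neuron-like cells in GFP high (0.21); the cause of these changes was not tested.

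No paired analysis was possible because each group is 1 library and no result comes from a test. Leaving out the unnamed cluster with hair and supporting cell markers was chosen after seeing the data. Depth limits the 148 hair-cell-like cells of day 20 most, where Cacnb2 rests on 15 UMIs and Bsn on 8.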
